A study of Mus musculus with 10 samples.

Results

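Cxcl9, Cxcl10 and Cxcr3 encode a chemokine receptor of T cells and a pair of its interferon-induced ligands. They were taken by symbol from the deposited array table, with the probe set of highest mean level over the 10 arrays chosen by rule to stand for a gene, and make up 3 of 19505 annotated genes. Each of them had 1 probe set, so the choice by mean level selected nothing, and all 3 were among the 13393 genes tested. The trio itself was chosen by name, with the construct changes of these arrays already known, the spleen change of Cxcl9 among them. Its p-values over all genes tested therefore place each gene among the others as a description and are no independent support.

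The study put CD4+ T cells transduced with oncogenic Vav1 or with GFP into immunocompromised mice and measured spleen and lymph node RNA 6 months later on single-colour Affymetrix arrays. Vav1 is a guanine nucleotide exchange factor that relays T cell receptor signals. There were 4 oncogenic Vav1 spleen arrays, 2 GFP spleen arrays, 2 oncogenic Vav1 lymph node arrays and 2 GFP lymph node arrays. The labels give the strain C57BL/10 for all of them and the genotypes WT + Oncogenic Vav1 and WT + GFP, so every animal carried transduced cells and none had been left without transfer. The sources used here do not give the hosts' genotype, the immune cells they still had, the promoter that drove the construct, or the mutation that makes Vav1 oncogenic. The descriptions name 7 animals, of which CTL2, ONCO2 and ONCO3 gave both tissues.

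CXCR3 is a G protein-coupled receptor that guides activated helper T cells of the Th1 type, cytotoxic T cells and NK cells toward sources of its ligands. CXCL9 is induced chiefly by interferon gamma, in macrophages, dendritic cells and stromal cells, while CXCL10 is induced by type I interferons and inflammatory signals as well. Interferon gamma comes from T and NK cells themselves, and the transcription factor T-bet, encoded by Tbx21, induces both interferon gamma and CXCR3 in T cells.

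In the RefSeq annotation of GRCm38.p6 the ligand genes are neighbours on the minus strand, Cxcl9 at chr5:92321331-92328079 and Cxcl10 at chr5:92346638-92348889. Cxcr3 lies at chrX:101731535-101734147, also on the minus strand. The 250 bases before each start are shown because the ligands moved together across the arrays while the receptor moved by much less. Capitals mark matches to an interferon-stimulated response element core (ISRE, a pair of GAAA blocks with 2 bases of any kind between them) or to kappa B letters (GGGA, 2 bases of any kind, then TTCC, or the shorter GGGANTTCC). Each is written 5′ to 3′ on the minus strand, the strand of the gene, and comes from RefSeq, at chr5:92328080-92328329 for Cxcl9, chr5:92348890-92349139 for Cxcl10 and chrX:101734148-101734397 for Cxcr3.
Cxcl9: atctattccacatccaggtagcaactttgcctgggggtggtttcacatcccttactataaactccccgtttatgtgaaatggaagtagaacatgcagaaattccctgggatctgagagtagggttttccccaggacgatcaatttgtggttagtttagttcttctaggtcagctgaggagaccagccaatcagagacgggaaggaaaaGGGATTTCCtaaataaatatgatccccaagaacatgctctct
Cxcl10: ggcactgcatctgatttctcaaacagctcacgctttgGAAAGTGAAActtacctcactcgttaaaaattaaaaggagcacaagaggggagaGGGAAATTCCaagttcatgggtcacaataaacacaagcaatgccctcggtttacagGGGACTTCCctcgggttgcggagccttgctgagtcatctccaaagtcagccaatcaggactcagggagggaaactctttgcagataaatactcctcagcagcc
Cxcr3: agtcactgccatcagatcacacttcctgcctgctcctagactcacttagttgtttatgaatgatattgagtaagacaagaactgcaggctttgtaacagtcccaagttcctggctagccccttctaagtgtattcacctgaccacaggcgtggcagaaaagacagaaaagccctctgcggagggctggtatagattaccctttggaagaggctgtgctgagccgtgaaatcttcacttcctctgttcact

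The Cxcl10 window held the ISRE core at -213 to -204 from the start, the kappa B letters at -159 to -150 and the shorter kappa B letters at -103 to -95. The Cxcl9 window held only the shorter kappa B letters, at -42 to -34, and the Cxcr3 window held none of these. No window of the 3 matched the interferon gamma-activated site core TTCNNNGAA or the T-box letters GGTGTGA on either strand. Among 32851 RefSeq promoter windows of the same length, 2.98% held the ISRE core, 1.21% the kappa B letters, 1.43% the shorter kappa B letters, 7.02% the interferon gamma-activated site core and 3.33% the T-box letters. The shorter kappa B letters were added after the sequences had been read. A match describes these letters only, and a window without one says nothing of sites elsewhere.

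Some arrays stood apart or went against their labels. The distance between a pair of arrays was taken as the SD over genes of their log2 difference. By it the oncogenic Vav1 lymph node array of replicate 1 (animal ONCO2) lay 0.253 to 0.339 from the oncogenic Vav1 spleen arrays, which lay 0.237 to 0.317 from each other. Its distance to the oncogenic Vav1 lymph node array of replicate 2 (animal ONCO3) was 0.63. Replicate 2 lay 0.505 to 0.639 from the oncogenic Vav1 spleen arrays, and both lay 0.679 to 0.828 from the GFP lymph node arrays. Coch, a gene of spleen stroma singled out after its values were seen, read 8.93 and 9.64 on the log2 scale in the oncogenic Vav1 lymph node arrays, against 5.24 and 5.95 in the GFP lymph node arrays. Ucp1, a brown fat gene chosen the same way, read 3.94 and 3.69 in oncogenic Vav1 lymph node, against 10.29 and 10.47 in GFP lymph node. The Y-linked gene Uty, also chosen after its values were seen, read 8.74 in the lymph node array and 5.61 in the spleen array that both carry the name ONCO3, so these may not come from 1 animal. In the comparisons of lymph node with spleen, the fit without the animal block changed no call of Cxcl9, Cxcl10 or Cxcr3. No arrays were identical. The part of tissue content in the lymph node results cannot be told apart from the construct, and those results are given with and without each array.

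**Figure D1:**
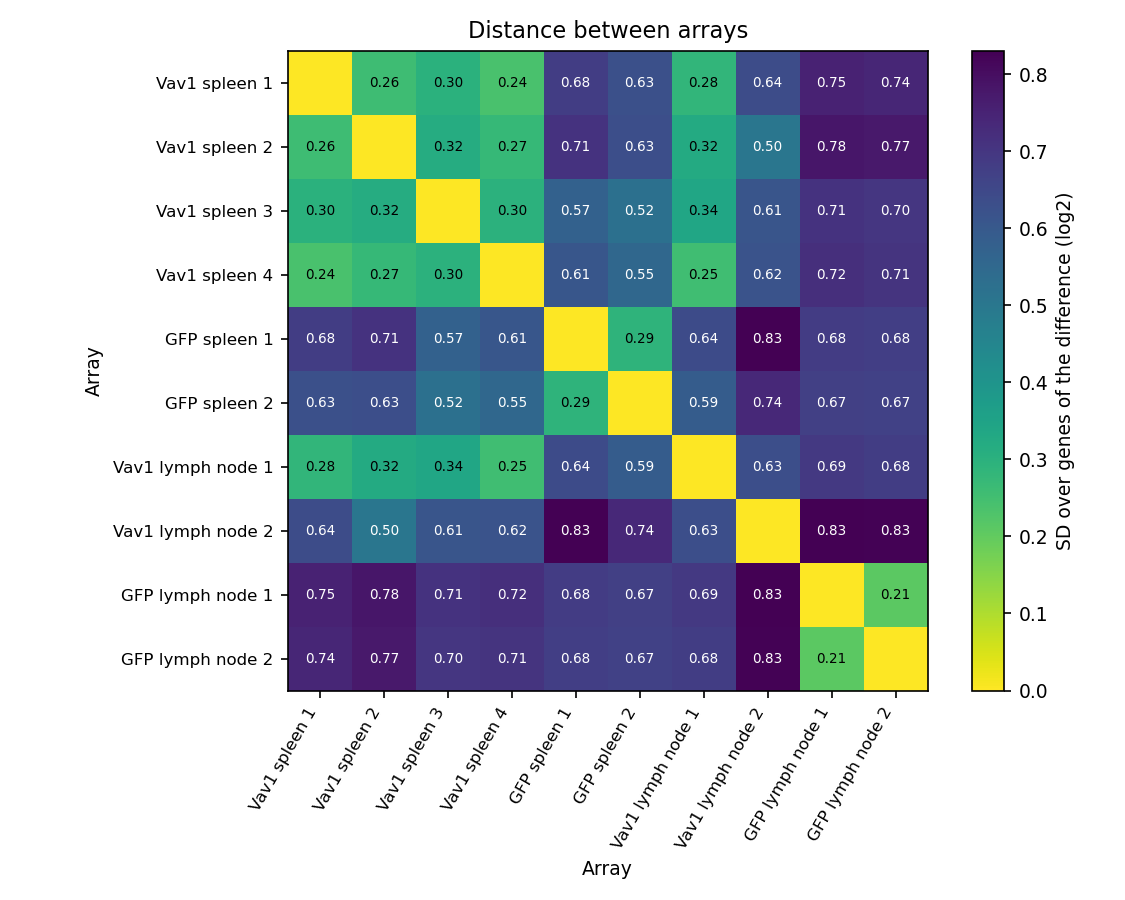
Distance between each pair of the 10 arrays, as the SD over genes of their log2 difference; rows and columns are arrays, and darker cells lie farther apart. The oncogenic Vav1 lymph node array 1 lies 0.253 to 0.339 from the oncogenic Vav1 spleen arrays and 0.63 from the other oncogenic Vav1 lymph node array.

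By their cell type label the samples are CD4+ T cells of each tissue, while the descriptions speak of the tissue. T cell markers were present on every array, but so were those of other cells. The 8 B cell markers tested averaged 9.54 to 9.99 in oncogenic Vav1 spleen and 10.999 to 11.04 in GFP spleen on the log2 scale, with none below the 40th percentile of an array. Their mean was 9.26 to 9.67 in oncogenic Vav1 lymph node and 9.82 to 9.87 in GFP lymph node. The values below are thus those of mixed cells, in which more cells of a type and more RNA per cell cannot be told apart. Whether cells were sorted is not stated in the sources used here. Vav1 itself read 9.99 to 10.30 in oncogenic Vav1 spleen and 9.63 to 9.83 in GFP spleen (change 0.45, adjusted p = 0.137, limma), and 9.27 and 10.17 in oncogenic Vav1 lymph node, against 9.52 and 9.69 in GFP lymph node (0.11, adjusted p = 0.8).

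The ligand Cxcl9 carried the widest difference of the 3 genes. Its values were 12.53, 12.33, 11.96 and 12.51 in the oncogenic Vav1 spleen arrays, against 8.50 and 8.59 in the GFP spleen arrays (RMA values, log2). Every oncogenic Vav1 spleen array lay above both GFP spleen arrays. In lymph node it read 12.62 and 10.19 with oncogenic Vav1, against 9.65 and 9.78 with GFP. The array of replicate 1 was as high as the oncogenic Vav1 spleen arrays, and that of replicate 2 lay just above both GFP arrays. Group means were 12.33 ± 0.26 in oncogenic Vav1 spleen (SD, n = 4) and 8.55 ± 0.064 in GFP spleen (SD, n = 2). Those of lymph node were 11.40 ± 1.72 with oncogenic Vav1 and 9.72 ± 0.097 with GFP (SD, n = 2 each).

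Cxcl10, the second ligand, read 10.35, 10.05, 9.35 and 10.09 in oncogenic Vav1 spleen, against 6.96 and 7.25 in GFP spleen. Again the groups did not overlap, and the array named ONCO3 gave the lowest oncogenic Vav1 spleen value of both ligands. The lymph node arrays read 10.21 and 7.39 with oncogenic Vav1, against 7.49 and 7.63 with GFP. There replicate 2 lay below both GFP arrays, so the groups overlapped. The means were 9.96 ± 0.43 in oncogenic Vav1 spleen (SD, n = 4) and 7.10 ± 0.21 in GFP spleen (SD, n = 2), then 8.80 ± 2.00 in oncogenic Vav1 lymph node and 7.56 ± 0.10 in GFP lymph node (SD, n = 2 each).

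The receptor gene Cxcr3 varied over a narrower range. It read 8.81, 8.65, 8.90 and 8.65 in oncogenic Vav1 spleen, against 8.24 and 8.09 in GFP spleen. These groups did not overlap either, and ONCO3, lowest for the ligands, was highest for the receptor. With oncogenic Vav1 the lymph node values were 8.91 and 8.25, against 8.35 and 8.30 with GFP. Replicate 1 lay above both GFP arrays and replicate 2 below both. Means came to 8.76 ± 0.12 in oncogenic Vav1 spleen (SD, n = 4) and 8.16 ± 0.11 in GFP spleen (SD, n = 2), and to 8.58 ± 0.47 in oncogenic Vav1 lymph node and 8.32 ± 0.032 in GFP lymph node (SD, n = 2 each).

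**Figure D2:**
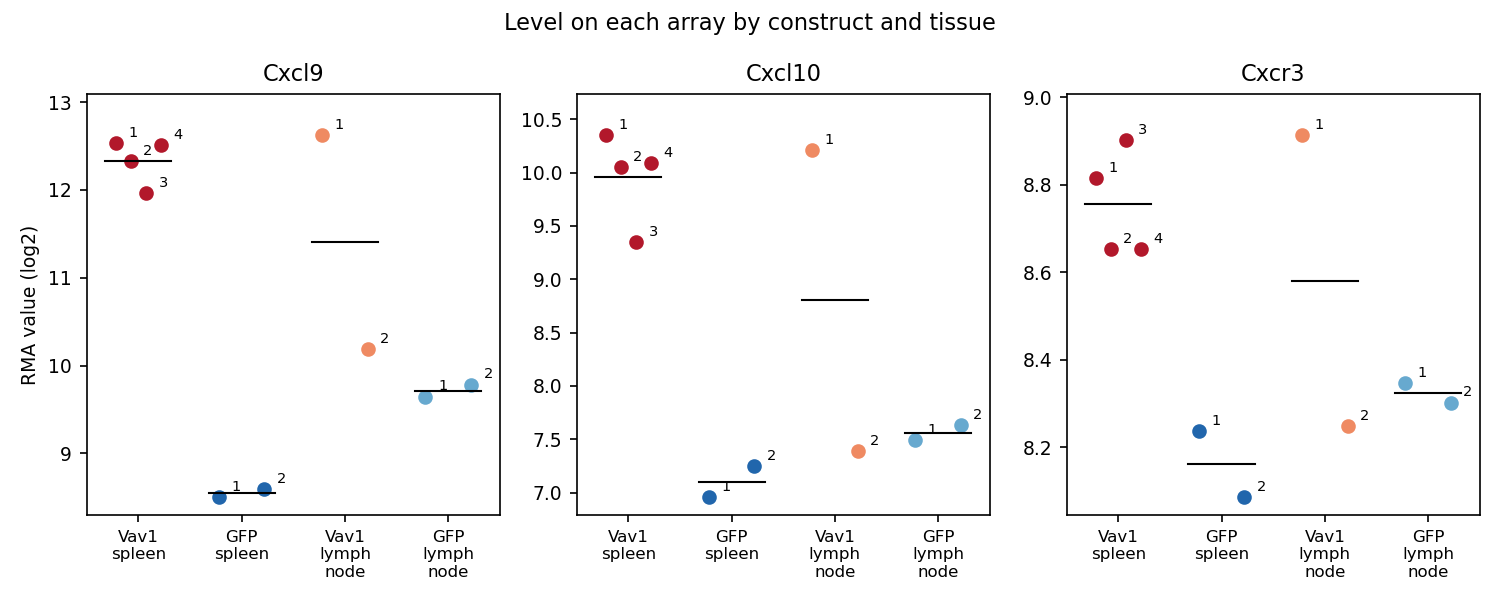
Level of Cxcl9, Cxcl10 and Cxcr3 on each array (vertical axis, RMA value on the log2 scale, with a separate range per gene that does not start at 0), by construct and tissue; points are arrays with their replicate number, and lines are group means. The 4 oncogenic Vav1 spleen arrays of Cxcl9 lie between 11.96 and 12.53, above both GFP spleen arrays, while the oncogenic Vav1 lymph node arrays lie far apart.

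The order of the group means was the same for all 3 genes: oncogenic Vav1 spleen, oncogenic Vav1 lymph node, GFP lymph node, then GFP spleen. The neighbours oncogenic Vav1 spleen and oncogenic Vav1 lymph node overlapped for each gene, and so did oncogenic Vav1 lymph node and GFP lymph node for Cxcl10 and Cxcr3. None of the 3 genes lay below the 40th percentile of its array on any of the 10 arrays.

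In spleen all 3 genes rose with oncogenic Vav1 in limma's fit, where 26.8% of all genes tested passed in either direction, 17.1% as higher and 9.77% as lower (Benjamini-Hochberg adjusted p under 0.05). Cxcl9 was 13.8-fold higher (log2 change 3.78, SE 0.49, 95% interval 2.71 to 4.86, adjusted p = 0.000803, higher in 4 of 4 oncogenic Vav1 arrays), the 9th largest rise of the 13393 genes tested. Cxcl10 was 7.26-fold higher (2.86, SE 0.58, 95% interval 1.57 to 4.15, adjusted p = 0.00622), the 29th largest. Cxcr3 was 1.51-fold higher (0.59, SE 0.17, 95% interval 0.21 to 0.98, adjusted p = 0.0292) and stood at rank 2031. The median change of all genes tested was 0.0019. This fit pools the spread of all 4 groups. For Cxcr3 the SD was 0.47 in oncogenic Vav1 lymph node and 0.12 in oncogenic Vav1 spleen. With spleen arrays alone 23.8% of all genes passed as higher, and the 3 genes did too. Their adjusted p was then 3.1e-08 for Cxcl9, 6.43e-06 for Cxcl10 and 0.00268 for Cxcr3 (limma). Arrays without overlap and higher in oncogenic Vav1 spleen were seen for 30.3% of all genes and lower ones for 25.2%, so the lack of overlap alone says little about these genes.

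Per array, the distance above the mean of the GFP spleen arrays was 3.98, 3.78, 3.41 and 3.96 for Cxcl9 in oncogenic Vav1 spleen replicates 1 to 4. For Cxcl10 it was 3.25, 2.95, 2.25 and 2.99, and for Cxcr3 it was 0.65, 0.49, 0.74 and 0.49. The array of replicate 3 was the lowest of the group in 9 of the 13 interferon gamma-induced genes tested (69.2%), where it was lowest in 32% of all genes tested. This was not particular to them: it was also lowest in 6 of 8 neutrophil markers (75%) and 6 of 9 interferon gamma signalling genes (66.7%). Among 8 B cell markers it was lowest in 0. None of the 4 oncogenic Vav1 spleen values of a gene stood apart from the others by Dixon's criterion, and the groups of 2 arrays could not be tested so.

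The spleen groups also differed in the level of intronic control probe sets, which measure signal from introns and whose median was 5.43, 5.45, 5.55 and 5.44 in oncogenic Vav1 spleen, against 5.87 and 5.69 in GFP spleen. With that median as a covariate the Cxcl9 rise was 1.95 and still passed (adjusted p = 0.0291). The change of Cxcl10 was then 0.57 (SE 0.45, adjusted p = 0.425) and that of Cxcr3 0.29 (SE 0.27, adjusted p = 0.501), so neither passed. The slope of that covariate comes from the spread within groups, and the oncogenic Vav1 lymph node arrays lay widest apart (5.27 and 5.57). Changes fitted with it in the other groups thus also draw on how those lymph node arrays differ. Without GFP spleen replicate 1, Cxcl10 kept its size but missed the threshold (2.71, adjusted p = 0.0712). The Cxcr3 call was lost without either GFP spleen array (0.67, adjusted p = 0.106, without replicate 1; 0.52, adjusted p = 0.163, without replicate 2), and without oncogenic Vav1 spleen replicate 1, 2 or 3 (0.58, 0.63 and 0.55, adjusted p = 0.0709, 0.0503 and 0.0594).

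In lymph node none of the 3 genes passed limma's adjusted threshold and 1, Cxcl9, had an unadjusted p under 0.05. Of all genes tested 18.7% passed, 7.87% as higher and 10.8% as lower. The Cxcl9 change was 1.69 (SE 0.56, 95% interval 0.44 to 2.93, adjusted p = 0.0624), with both oncogenic Vav1 arrays above both GFP arrays, as for 24.2% of all genes (28.8% lay lower without overlap). Cxcl10 differed by 1.24 (SE 0.67, 95% interval -0.25 to 2.73, adjusted p = 0.244) and Cxcr3 by 0.26 (SE 0.20, 95% interval -0.19 to 0.70, adjusted p = 0.43). The oncogenic Vav1 array of replicate 1 lay 2.90 above the GFP lymph node mean for Cxcl9, 2.65 above for Cxcl10 and 0.59 above for Cxcr3. That of replicate 2 differed from it by 0.47, -0.17 and -0.076 for the same genes. The lymph node values thus rest on 1 array. Without replicate 2 all 3 genes passed (adjusted p = 2.87e-07, 2.88e-05 and 0.0162 for Cxcl9, Cxcl10 and Cxcr3), and without replicate 1 none did (0.236, 0.71 and 0.763). In those fits the lone oncogenic Vav1 lymph node array is assumed to vary like the other groups. Leaving out both arrays of ONCO3 gave the same changes as leaving out replicate 2, since it leaves the same lymph node arrays.

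**Figure D3:**
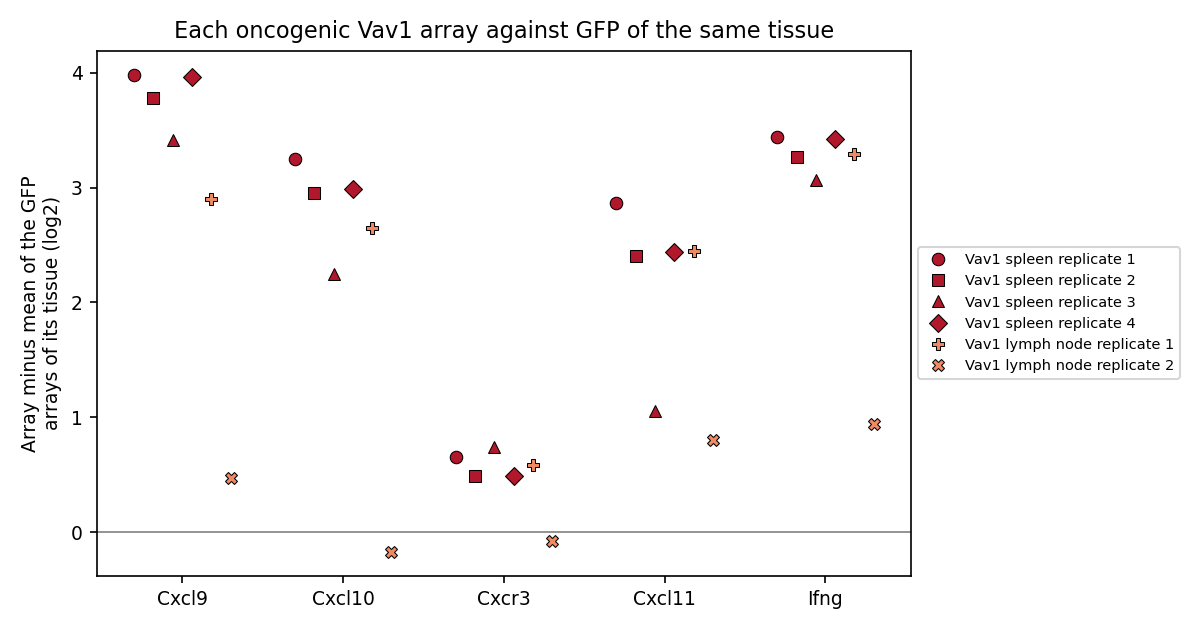
Each oncogenic Vav1 array minus the mean of the GFP arrays of its tissue (vertical axis, log2) for Cxcl9, Cxcl10, Cxcr3, Cxcl11 and Ifng; each symbol is an array, and the grey line is no difference. Lymph node replicate 1 lies at 2.90 for Cxcl9, near the spleen arrays, and replicate 2 at 0.47.

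The construct effect in lymph node minus that in spleen was -2.11 for Cxcl9 (SE 0.78, adjusted p = 0.125), -1.64 for Cxcl10 (SE 0.94, adjusted p = 0.31) and -0.34 for Cxcr3 (SE 0.27, adjusted p = 0.453). None of the 3 passed this limma test of the difference, which 8.04% of all genes did (0.933% higher, 7.11% lower), and 1, Cxcl9, had an unadjusted p under 0.05. Without lymph node replicate 1 the differences were -3.28, -2.97 and -0.68, and without replicate 2 they were -0.89, -0.23 and 0.011. Either fit held 1 oncogenic Vav1 lymph node array, so the sizes are given without calls. With the intronic control covariate the Cxcl10 difference was turned round, at 0.80 (adjusted p = 0.358).

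Between the tissues of oncogenic Vav1 animals the fitted lymph node minus spleen difference was -0.95 for Cxcl9 (SE 0.51, adjusted p = 0.544), -1.19 for Cxcl10 (SE 0.62, adjusted p = 0.542) and -0.17 for Cxcr3 (SE 0.18, adjusted p = 0.694). None passed in limma's fit, with 0 at an unadjusted p under 0.05, and 0.0373% of all genes did, all of them higher in lymph node. The pairs of arrays that share an animal name differed in direction. For ONCO2, lymph node minus spleen was 0.29 for Cxcl9, 0.16 for Cxcl10 and 0.26 for Cxcr3, and for ONCO3, whose arrays differ in Uty and may not be of 1 animal, it was -1.77, -1.96 and -0.65. Without lymph node replicate 1 the differences were -2.10, -2.499 and -0.52, and without replicate 2 they were 0.29, 0.24 and 0.17. Each of those fits held 1 oncogenic Vav1 lymph node array, so sizes alone are given.

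In GFP animals the ligands and the receptor read higher in both lymph node arrays than in both spleen arrays, as did 34.2% of all genes, but no difference passed in limma's fit, with 0 at an unadjusted p under 0.05, where 16% of all genes did (11.6% higher, 4.41% lower). Lymph node minus spleen was 1.16 for Cxcl9 (SE 0.59, adjusted p = 0.211), 0.45 for Cxcl10 (SE 0.71, adjusted p = 0.715) and 0.17 for Cxcr3 (SE 0.20, adjusted p = 0.613). Within CTL2, the animal with both tissues, it was 1.28, 0.68 and 0.07. The Cxcl9 difference was 1.18 in both fits that left out 1 oncogenic Vav1 lymph node array, a group whose spread the fit pools with the others. Of the 10 fits that left out 1 array, 2 moved Cxcl9 over the threshold at a like size (1.10 to 1.23 over all 10). Whether it is called thus depends on which arrays set the pooled spread. With the intronic control covariate the sign was turned round for all 3 genes (-1.02, -2.33 and -0.13, adjusted p = 0.0706, 0.00224 and 0.729), and Cxcl10 then passed as lower in lymph node. The slope of that covariate also draws on the spread between the oncogenic Vav1 lymph node arrays.

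**Figure D4:**
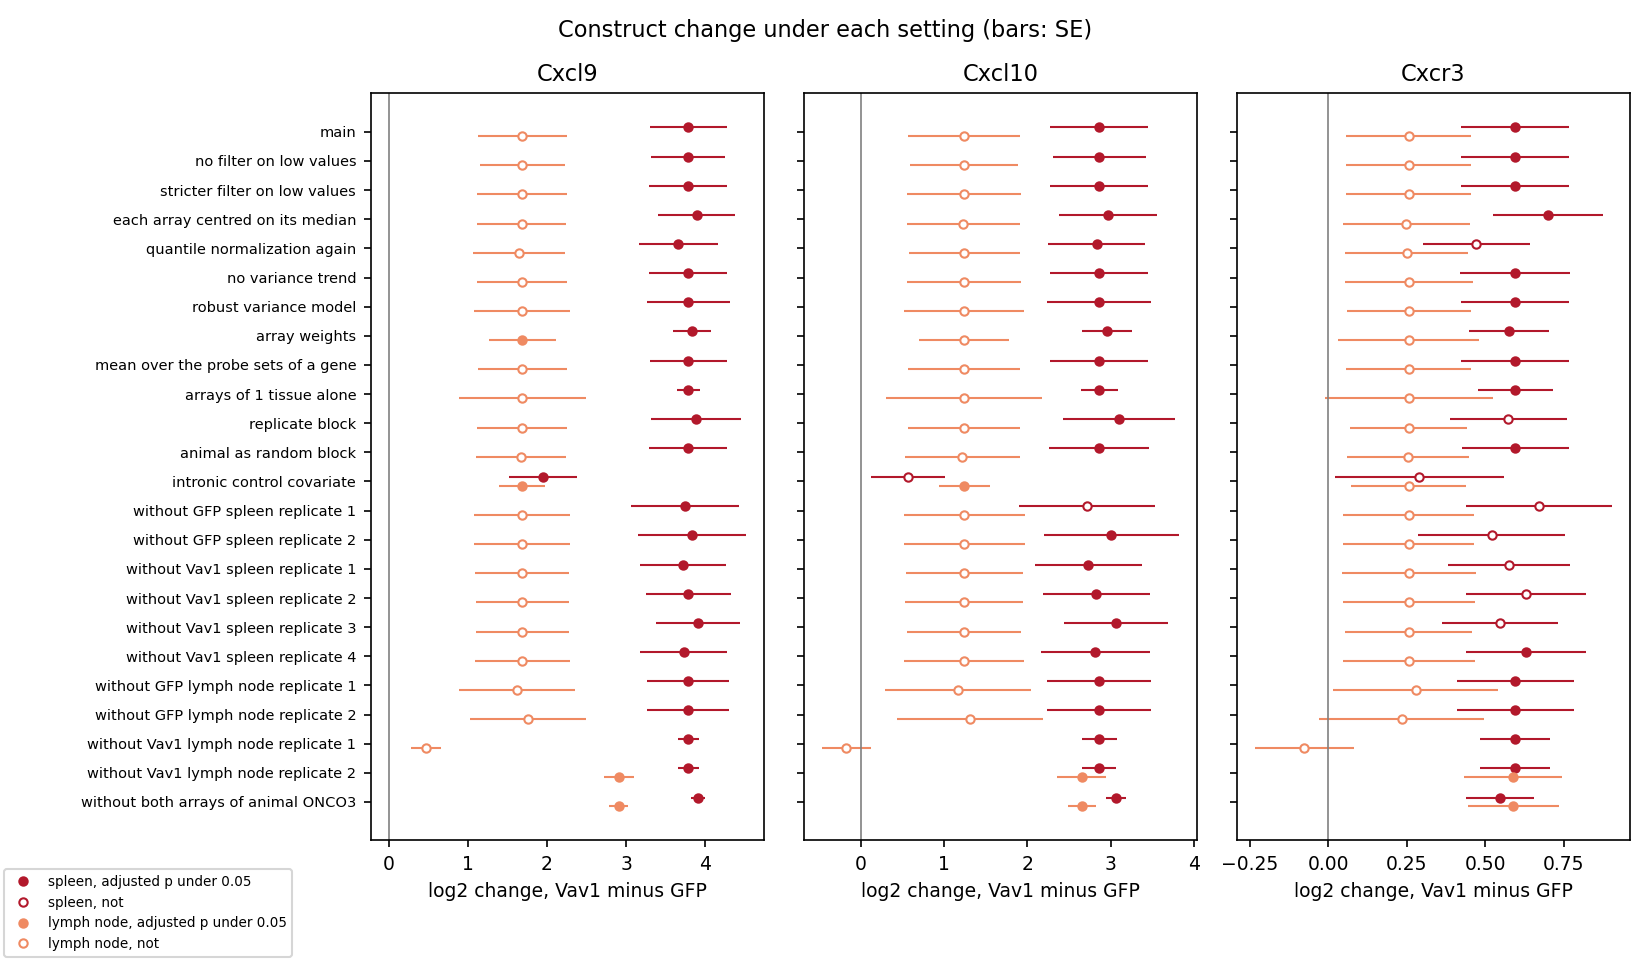
Log2 change of Cxcl9, Cxcl10 and Cxcr3 with oncogenic Vav1 against GFP (horizontal axis, a separate range per gene) in spleen and lymph node under each way of fitting (rows); bars are SE, and filled points have an adjusted p under 0.05. Cxcl9 in spleen lies between 1.95 and 3.91 and is filled in every row, while Cxcl10 in spleen is open with the intronic control covariate and without GFP spleen replicate 1.

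Of all genes tested 17.1% rose and 9.77% fell in spleen, and 7.87% rose and 10.8% fell in lymph node, which is the background to the list counts that follow. With spleen arrays alone 23.8% rose and 14% fell in spleen, and with the intronic control covariate 4.56% rose and 2.28% fell there. In lymph node 14.5% rose and 20.2% fell without replicate 1, 11% rose and 10.5% fell without replicate 2, and 0.851% rose and 2.38% fell with lymph node arrays alone. Counts under those fits are to be read against these shares.

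Of the other ligands and the molecules that handle them, 1 of 5 rose in spleen, near the share of all genes, and 2 fell. The third interferon-induced ligand, Cxcl11, is annotated by RefSeq as a transcribed pseudogene and lies beside Cxcl10 at chr5:92359544-92363296. It read 7.15, 6.68, 5.34 and 6.72 in oncogenic Vav1 spleen, against 4.17 and 4.39 in GFP spleen (2.19, SE 0.50, adjusted p = 0.01). The array of replicate 3 and both GFP arrays lay below the 40th percentile of their arrays, near background. Lymph node values were 6.79 and 5.15 with oncogenic Vav1, against 4.37 and 4.31 with GFP (1.62, adjusted p = 0.0768), high again in replicate 1. Dpp4, a surface peptidase that trims and inactivates these ligands, fell in both tissues (-0.75, adjusted p = 0.0103, in spleen; -0.83, adjusted p = 0.0154, in lymph node). The atypical receptor gene Ackr3, whose protein binds CXCL11 and takes up CXCL12, fell in spleen (-1.05, adjusted p = 0.00846) and was 0.01 apart in lymph node (adjusted p = 0.982). Pf4, a platelet chemokine, rose in lymph node (1.48, adjusted p = 0.00451), and Ackr1, a chemokine-binding receptor of venules and red cells, passed in neither.

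Interferon gamma was the signalling gene that differed most. Ifng read 8.82, 8.65, 8.44 and 8.80 in oncogenic Vav1 spleen, against 5.33 and 5.43 in GFP spleen, where both arrays lay below their 40th percentile. It rose by 3.30 in spleen (SE 0.48, adjusted p = 0.00138). In lymph node it read 8.85 and 6.49 with oncogenic Vav1, against 5.87 and 5.24 with GFP (2.11, SE 0.56, adjusted p = 0.0242). Replicate 1 was again at the level of the spleen arrays, yet replicate 2 also lay above both GFP arrays. Lymph node minus spleen was 0.20 for Ifng between the arrays named ONCO2 and -1.95 between those named ONCO3, with the same doubt about the ONCO3 pair.

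Of the 9 genes of interferon gamma and its signalling that were tested, 2 rose and none fell in spleen, near the shares of all genes. Their median change was 0.11 against 0.0019 over all genes. Besides Ifng the riser was Socs1, a feedback inhibitor of the JAK kinases (1.34, adjusted p = 0.0217). The receptor chains Ifngr1 and Ifngr2 differed by 0.11 and -0.04 and the kinase Jak2 by 0.07 (adjusted p = 0.544, 0.905 and 0.714). The transcription factor Irf1 differed by 0.85 (adjusted p = 0.0852), Irf8 by 0.60 (adjusted p = 0.197) and Ciita, the regulator of MHC class II genes, by -0.37 (adjusted p = 0.361). In lymph node Ifng rose and Jak1 fell (-0.66, adjusted p = 0.0124). With spleen arrays alone 4 rose and 1 fell in spleen, and with the covariate none rose and 1 fell. In lymph node 5 fell without replicate 1, 5 rose without replicate 2, and with lymph node arrays alone none passed.

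The interferon gamma-induced genes moved with the ligands in spleen: 11 of 13 tested rose and none fell, with a median change of 1.11. Iigp1, an interferon-inducible GTPase, rose by 3.46 (adjusted p = 0.000978), Igtp, another such GTPase, by 2.08 (adjusted p = 0.000121) and the guanylate-binding protein gene Gbp7 by 1.67 (adjusted p = 0.000906). The immunoproteasome subunit gene Psmb9 rose by 1.502 (adjusted p = 0.0025). With the intronic control covariate 3 of the 13 rose. In lymph node 2 rose, Igtp (0.98, adjusted p = 0.00905) among them, with a median of 0.52. The oncogenic Vav1 lymph node array of replicate 1 lay above both GFP arrays in 13 of 13 of these genes, against 45.6% of all genes. That of replicate 2 lay above both in 6 and below both in 7, against 36.3% and 50.4% of all genes. Without replicate 2, 12 rose in lymph node, without replicate 1 there was 1 that rose and 4 that fell, and with lymph node arrays alone none rose.

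Of the type I interferon-induced genes, 8 of 16 tested rose in spleen, with a median of 0.48, and 5 in lymph node, with a median of 0.27. Examples in spleen were Ifih1, a cytosolic RNA sensor (1.23, adjusted p = 0.00132), Bst2, an antiviral membrane tether (1.4996, adjusted p = 0.00192), and Irf7, the transcription factor that amplifies type I interferon (1.62, adjusted p = 0.0023). With the covariate none of the 16 rose in spleen. In lymph node 3 rose and 2 fell without replicate 1, and none rose with lymph node arrays alone.

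Of 11 genes tested from a list of Th1 transcription factors, cytokines and receptors, 7 rose and 1 fell in spleen, with a median of 0.73. Whether they act on Cxcr3 here was not tested. Tbx21 rose by 1.09 in spleen (adjusted p = 0.0197) and by 1.35 in lymph node (adjusted p = 0.0176). In each tissue 1 of the 2 GFP arrays of Tbx21 lay below its 40th percentile, near background. Eomes, a relative of Tbx21, rose by 2.58 in spleen (adjusted p = 0.0019). The interleukin 18 gene Il18 rose in both tissues (1.02, adjusted p = 0.00105, in spleen; 0.73, adjusted p = 0.0108, in lymph node). The receptor genes Il18r1 (1.25, adjusted p = 0.00764), Il18rap (0.64, adjusted p = 0.0301), Il12rb2 (0.87, adjusted p = 0.031) and Il12rb1 (0.57, adjusted p = 0.0458) rose in spleen. Il12a, a subunit of interleukin 12, fell in spleen (-0.62, adjusted p = 0.0243) and in lymph node (-0.94, adjusted p = 0.00893). Il15 fell in lymph node (-1.28, adjusted p = 0.00276), where 2 of the 11 rose and 2 fell. Stat4, the transducer of interleukin 12 signals, and Runx3, a partner of T-bet, passed in neither tissue (-0.38 and 0.73 in spleen, adjusted p = 0.065 and 0.115). With the covariate 1 of the 11 rose in spleen, and in lymph node 6 rose without replicate 2 and none with lymph node arrays alone.

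Among 6 other CXC chemokines tested, 1 rose and 1 fell in spleen, near the shares of all genes (17.1% and 9.77%). Cxcl16, the ligand of CXCR6, rose by 1.82 (adjusted p = 0.00345), and Cxcl13, the attractant of B cell follicles, fell by 0.88 (adjusted p = 0.00189). In lymph node Cxcl12, the ligand of CXCR4, fell by 1.17 (adjusted p = 0.00837), and the platelet chemokine Ppbp rose (adjusted p = 6.1e-05), with both GFP lymph node arrays, at 4.76 and 4.95, below their 40th percentile and so near background. None of the 4 other CXC chemokine receptors tested passed in spleen in limma's fit, and 3 had an unadjusted p under 0.05, where Cxcr6 differed by 0.65 (adjusted p = 0.084), Cxcr4 by -0.48 (adjusted p = 0.0786) and Cxcr5 by -0.63 (adjusted p = 0.0804). In lymph node Cxcr6 fell by 1.19 (adjusted p = 0.0188).

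Markers of several cell types moved along with the ligands. Of 10 macrophage and monocyte markers tested, 9 rose in spleen, with a median of 1.28, among them Ccr2 (1.40, adjusted p = 0.000102), Vcam1 (1.37, adjusted p = 0.000539) and C1qb (2.496, adjusted p = 0.0012). Their mean level was 9.48 to 9.59 in oncogenic Vav1 spleen and 8.19 to 8.21 in GFP spleen, then 8.87 to 9.54 in oncogenic Vav1 lymph node and 8.89 to 8.91 in GFP lymph node. No macrophage marker lay below the 40th percentile on any array, and 2 of the 10 rose in spleen with the intronic control covariate. In lymph node 2 rose, 6 without replicate 2 and none with lymph node arrays alone.

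Neutrophil markers rose in 8 of 8 in both tissues, with a mean level of 9.54 to 9.90 in oncogenic Vav1 spleen and 6.28 to 6.44 in GFP spleen. The mean was 8.89 to 9.66 in oncogenic Vav1 lymph node and 6.20 to 6.45 in GFP lymph node, so both oncogenic Vav1 lymph node arrays were high, unlike for Cxcl9 and Cxcl10. B cell markers fell in 8 of 8 in spleen and in 2 in lymph node (5 without replicate 1). Of 8 dendritic cell markers 2 rose and 2 fell in spleen, and of 5 plasma cell markers 3 rose there. In lymph node 1 dendritic cell marker rose and 3 fell, and 4 of the plasma cell markers rose. Endothelial and stromal markers fell in 1 of 10 in spleen, near the share of all genes (9.77%), and in 7 in lymph node. Red cell precursor markers passed in none of 6 in spleen (2 at an unadjusted p under 0.05), with a median change of 1.18, and rose in 6 of 6 in lymph node.

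T cells and NK cells are among those that can carry CXCR3. Of 9 T cell markers 1 rose in spleen, Cd4 (1.04, adjusted p = 0.0103), near the share of all genes (17.1%). The median of these markers was 0.51 there. In lymph node 5 fell, with a median of -1.21 (1 fell with lymph node arrays alone). Their mean level was 9.16 to 9.64 in oncogenic Vav1 spleen and 8.89 to 8.90 in GFP spleen, then 8.21 to 9.27 in oncogenic Vav1 lymph node and 9.90 to 9.93 in GFP lymph node. With spleen arrays alone 5 T cell markers rose in spleen, and with the covariate none. Among 7 NK cell markers tested 1 rose and 2 fell in spleen and 3 fell in lymph node, with a mean level of 6.13 to 6.79 in oncogenic Vav1 spleen and 6.44 to 6.58 in GFP spleen. It was 5.95 to 6.11 in oncogenic Vav1 lymph node and 6.97 to 6.99 in GFP lymph node. The part of cell content in the changes of Cxcl9, Cxcl10 and Cxcr3 was not tested.

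The genes with the most similar profile were found as those with the smallest root mean square difference of centred log2 values over the 10 arrays, among 12904 genes. For Cxcl9 these were Iigp1 (0.27), Spon1 (0.29), Slamf8 (0.34), Gzmb (0.36) and Ifng (0.36), where the median over all genes was 1.62. Spon1 encodes a matrix protein, Slamf8 a receptor of myeloid cells and Gzmb the cytotoxic protease granzyme B. For Cxcl10 they were the endogenous retroviral gene Erv3 (0.11), Slamf8 (0.19), the interleukin 1 receptor antagonist Il1rn (0.26), Gzmb (0.29) and Gstt2, a glutathione transferase (0.30), where the median was 1.39.

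Cxcl9 and Cxcl10 differed from each other by 0.42, which placed Cxcl10 at rank 7 of 13392 genes for Cxcl9 and Cxcl9 at rank 26 for Cxcl10. Cxcr3 stood at rank 1171 for Cxcl9 and 986 for Cxcl10, while seen from Cxcr3 the ligands stood at rank 13259 (Cxcl9) and 13129 (Cxcl10). The measure also reflects how widely a gene varies, and Cxcr3 varied less (SD over arrays 0.29, against 1.60 for Cxcl9 and 1.37 for Cxcl10). Its closest genes were Srgap2 (0.083), Gnb1 (0.085), Ganab (0.086), Rrp7a (0.092) and Tor1a (0.094), where the median was 0.387. Gnb1 encodes a G protein subunit, Ganab a glucosidase of the endoplasmic reticulum, Rrp7a a ribosomal RNA processing factor and Tor1a an ATPase of the endoplasmic reticulum.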

How the data were processed

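RNA of 10 samples was measured on biotin-labelled Affymetrix arrays. Per the submitters' processing notes the authors used RMA and R 3.6.3 to make the deposited log2 values. The genome build, filters and version of the annotation are not given in the sources used here. Of 29129 probe sets 19572 carried 1 gene symbol, which gave 19505 genes. Genes had to exceed the 40th percentile of the array on 2 or more arrays to be tested, and 6112 did not.

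A model of the 4 groups was fitted to the log2 values with limma 3.58.1 (R 4.3.3, statmod 1.5.0) with a variance trend and 6 residual degrees of freedom. Its moderated test is two-sided, and p-values were adjusted by Benjamini-Hochberg over the 13393 genes tested. The contrasts between tissues and the difference of construct effects took the animal as a random block (correlation -0.11). Separate culture or housing is not stated for the animals, so p-values measure the spread between these arrays. The number of arrays limits the precision.

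The members, the 16 gene lists and the rule for named genes were chosen with earlier results of these data known. Named were the 3 members, Vav1 and every member of the lists of ligands, interferon gamma signalling and Th1 genes. So were up to 4 genes with the smallest p of each other list, and per member the 5 most similar profiles. Listed genes that the annotation used here does not pair with a probe set were not analysed. Arrays of the same replicate number carry different animal names, and their deviations from the group means correlated at 0.04 and 0.30 in spleen and -0.06 in lymph node, so numbers were not read as pairs. The fits were also run on simulated data with independent noise of equal spread in all groups. Such data lack the wide gap between the oncogenic Vav1 lymph node arrays, so that run does not vouch for the fits here. Alternatives covered the filter, scaling, variance model, array weights, probe sets, blocks, an intronic control covariate and leaving out arrays.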

Additional observations from a re-analysis of the deposited data

How the results depend on the processing

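Of 336 values of the 3 genes under the alternatives, 288 kept their direction and their side of the threshold, 10 no longer passed, 24 newly passed and 14 turned round. Cxcl9 in spleen passed under every alternative run, between 1.95 and 3.91. Leaving out 1 array at a time gave these ranges. In spleen the count of genes was 1089 to 5520, Cxcl9 3.72 to 3.91, Cxcl10 2.71 to 3.06 and Cxcr3 0.52 to 0.67. In lymph node they were 1040 to 4650 genes, 0.47 to 2.90, -0.17 to 2.65 and -0.076 to 0.59. For the difference of construct effects they were 384 to 4201, -3.28 to -0.89, -2.97 to -0.23 and -0.68 to 0.011. For oncogenic Vav1 lymph node against spleen they were 3 to 3812, -2.10 to 0.29, -2.499 to 0.24 and -0.52 to 0.17, and for GFP lymph node against spleen 863 to 4280, 1.10 to 1.23, 0.32 to 0.60 and 0.09 to 0.24. Cxcr3 in spleen missed the threshold after quantile normalization again (0.47, adjusted p = 0.0637) and with the replicate block (0.57, adjusted p = 0.068), which changed no other call of the 3 genes. Genes called between oncogenic Vav1 tissues, 5 as reported, numbered 13 without a filter, 0 with the replicate block, 9 without the animal block, 94 with the intronic covariate and 41 without ONCO3. With array weights 1264 genes passed in lymph node and 3879 between GFP tissues, and Cxcl9 passed in lymph node (1.69, adjusted p = 0.0241), in the difference of construct effects (-2.24, adjusted p = 0.0203) and between GFP tissues (1.16, adjusted p = 0.00615). Lymph node arrays alone called 433 genes and spleen arrays alone 5051, against 3596 in spleen as reported. With the intronic covariate 916 genes passed in spleen, where Cxcl10 was 0.57 and Cxcr3 0.29, and Cxcl9 (1.69, adjusted p = 0.00226) and Cxcl10 (1.24, adjusted p = 0.0151) passed in lymph node. Those lymph node sizes were as in the main fit, while the SE went from 0.56 to 0.29 for Cxcl9 and from 0.67 to 0.31 for Cxcl10. The slope of the covariate draws on the gap between the oncogenic Vav1 lymph node arrays, so these calls do not show that both arrays rose. With the covariate the Cxcl10 difference of construct effects was 0.80, Cxcl10 between oncogenic Vav1 tissues -1.53 (adjusted p = 0.0451), and Cxcl9, Cxcl10 and Cxcr3 between GFP tissues -1.02, -2.33 and -0.13. Without both ONCO3 arrays 5849 genes passed in spleen, 2726 in the difference and 4705 between GFP tissues. That fit held 1 oncogenic Vav1 lymph node array, assumed to vary like the other groups, so sizes of the 3 genes are given without calls. Cxcl9, Cxcl10 and Cxcr3 were then 2.90, 2.65 and 0.59 in lymph node and 0.18, 0.062 and 0.21 between oncogenic Vav1 tissues. Cxcl9 was -0.996 and Cxcr3 0.055 in the difference, and Cxcl9 1.18 and Cxcl10 0.47 between GFP tissues. The causes were not tested. Centring each array moved the median change of all genes in spleen to 0.1079 and the share of calls that were higher to 79.8%, from 63.6%, while quantile normalization again gave 56.1%; in lymph node the shares were 39.9% and 40%, against 42.2%. Cxcl11, Ifng, Tbx21 and, in lymph node, Ppbp lay near background in some or all GFP arrays. With 2 arrays in most groups as well, the sizes of those changes are uncertain.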
